A study of Mus musculus with 2 samples.

Results

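The genes described here are 29 genes of cholesterol synthesis, uptake and trafficking, out of 32574 genes in the deposited count matrices. They were taken by symbol from a list and all 29 were found. By role, 7 encode the condensation and mevalonate steps, 11 the squalene and sterol ring steps, 4 the control of SREBP2, 5 transport and storage, and 2 uptake receptors. They were measured in ischemic adductor muscle of Apoa1bp-/- mice and of WT littermates, collected on day 7 after femoral artery ligation (FAL), a model of hind limb ischemia. Both groups had the ligation, so neither is uninjured muscle. Apoa1bp, listed in the files under its current symbol Naxe, encodes AIBP, a secreted protein known for promoting cholesterol efflux from cells. The sources used here do not give the strain background, sex or age of the mice, or how the allele was made.

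Cells make cholesterol from acetyl-CoA through mevalonate, farnesyl diphosphate and squalene, which is folded into a ring and then trimmed to cholesterol. The transcription factor SREBP2 (Srebf2) drives these genes when the endoplasmic reticulum runs low in sterol: SCAP escorts it to the Golgi for cleavage, and the INSIG proteins hold the pair back when sterol is plentiful. Cholesterol also enters cells with lipoproteins through receptors of the LDL receptor family, is released from its esters by lysosomal acid lipase (Lipa), leaves the lysosome through NPC2 and NPC1, and is stored as ester by SOAT1. Regenerating muscle holds dividing satellite cells that need membrane, and macrophages that take in lipid from dead fibres.

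There was 1 single-cell library per genotype. Surgery was done on 4 mice of each, and the sources used here do not say if they were pooled. No difference between genotypes could be tested against the spread between animals. The intervals given are exact 95% intervals (Poisson for levels, conditional binomial for ratios, Clopper-Pearson for shares) and cover counting error only. The libraries shared 43 cell barcodes. After filtering, 8682 knockout and 12351 WT cells remained, with a median of 6624.5 and 4169 unique molecular identifiers (UMIs, counted transcript molecules) per cell. Levels are therefore given as counts per 1000000 UMIs of the same cells (CPM), summed over a class. They are not corrected for gene length and are compared within a gene only. Cells were put into classes by marker genes, and the class names stand for those gates. Genotypes are compared in the 4 classes with at least 200 cells in each library. No class of the 4 largest had one of its own markers at 0 UMIs. The gate itself asked for at least 3 of those markers per cell, so this does not check the class names. In all, 15.9% of knockout and 14.2% of WT cells stayed without a class. Naxe had 0 UMIs in the knockout library, which allows up to 0.0408 CPM, and 3347 UMIs or 49.98 CPM in the WT library.

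Promoter sequences of the pathway are shown first, since SREBP2 acts on its targets with NF-Y, which binds CCAAT, and the members differ in whether they carry these letters. The 250 bases before each annotated start were read from the RefSeq promoter table (GRCm38.p6), which holds 24 of the 29 members. A gene with several annotated starts was counted if any of their windows held the letters. CCAAT on either strand, read as ATTGG on the other, was found for 21 of the 24 members (87.5%), against 37.5% of all 27025 genes in the table and 40.9% of the 9524 of them that were measured in fibroblasts. The 3 members without it were the condensation enzyme gene Acat2, Scap and Lrp1. The core of the sterol regulatory element, TCACNCCAC, was found for 1 member, Hmgcs1, and for 1.22% of all genes, and it overlapped no CCAAT. The E-box CACGTG was found for 5 of 24 members (Hsd17b7, Sc5d, Dhcr7, Insig1 and Scap) and for 6.86% of all genes. A match is a description of letters and does not show binding. Below are promoters from 4 of the role groups, chosen from those with no exon base in the window, with CCAAT or ATTGG and the sterol element core in capitals, 5′ to 3′ on the gene's strand. Hmgcs1 (chr13:119690101-119690350, plus strand) holds the sterol element core as TCACCCCAC, starting 137 bases before the start, and 3 CCAAT boxes at 237, 176 and 45 bases. Mvd (chr8:122443423-122443672, minus strand), Ebp (chrX:8193513-8193762, minus strand) and Insig2 (chr1:121332590-121332839, minus strand) hold 2, 2 and 3 CCAAT boxes. Insig2 has further annotated starts, and their windows, which contain exon bases, hold none. Lrp1 (chr10:127621149-127621398, minus strand), a receptor gene that was lower in the knockout library in each large class where it was measured, holds none.
Hmgcs1: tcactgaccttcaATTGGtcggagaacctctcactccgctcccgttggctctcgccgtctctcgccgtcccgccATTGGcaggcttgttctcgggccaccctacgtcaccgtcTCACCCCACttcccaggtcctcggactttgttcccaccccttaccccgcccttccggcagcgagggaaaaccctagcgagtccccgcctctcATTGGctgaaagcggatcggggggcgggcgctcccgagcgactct
Mvd: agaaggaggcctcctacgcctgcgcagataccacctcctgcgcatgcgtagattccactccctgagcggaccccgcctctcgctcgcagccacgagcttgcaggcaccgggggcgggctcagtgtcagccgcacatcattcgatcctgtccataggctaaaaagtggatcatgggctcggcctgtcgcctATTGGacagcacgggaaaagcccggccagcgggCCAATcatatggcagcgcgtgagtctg
Ebp: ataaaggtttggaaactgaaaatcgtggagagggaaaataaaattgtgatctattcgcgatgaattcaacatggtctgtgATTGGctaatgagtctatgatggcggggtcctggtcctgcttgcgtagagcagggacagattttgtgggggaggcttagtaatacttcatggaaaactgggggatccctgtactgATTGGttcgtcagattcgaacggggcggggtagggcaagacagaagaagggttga
Insig2: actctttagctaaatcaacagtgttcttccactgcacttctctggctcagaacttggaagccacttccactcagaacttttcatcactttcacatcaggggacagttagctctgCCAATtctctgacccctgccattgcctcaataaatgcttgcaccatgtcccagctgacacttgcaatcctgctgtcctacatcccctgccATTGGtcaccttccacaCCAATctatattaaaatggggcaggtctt
Lrp1: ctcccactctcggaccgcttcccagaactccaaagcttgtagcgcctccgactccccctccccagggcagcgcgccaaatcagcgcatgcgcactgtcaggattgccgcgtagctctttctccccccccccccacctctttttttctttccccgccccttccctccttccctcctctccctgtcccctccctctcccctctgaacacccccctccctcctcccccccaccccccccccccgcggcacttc

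The pathway was spread unevenly over the cells of the muscle. Of the 12 classes with at least 50 cells in each library, Schwann cells, the myelinating and supporting cells of nerve, had the highest summed level of the 18 synthesis enzymes, 652 CPM in 118 knockout cells and 828 CPM in 53 WT cells. For 15 of the 29 members the same class was highest in both libraries, a count that was not made over all genes. Only for Hmgcs1, Npc2, Lipa and Lrp1 among them were the intervals of the first and next class apart in both libraries. Tm7sf2, for example, was highest in WT Schwann cells at 8.90 CPM, with a lower bound of 0.225 CPM. The plot of levels by class shows every member.

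**Figure D1:**
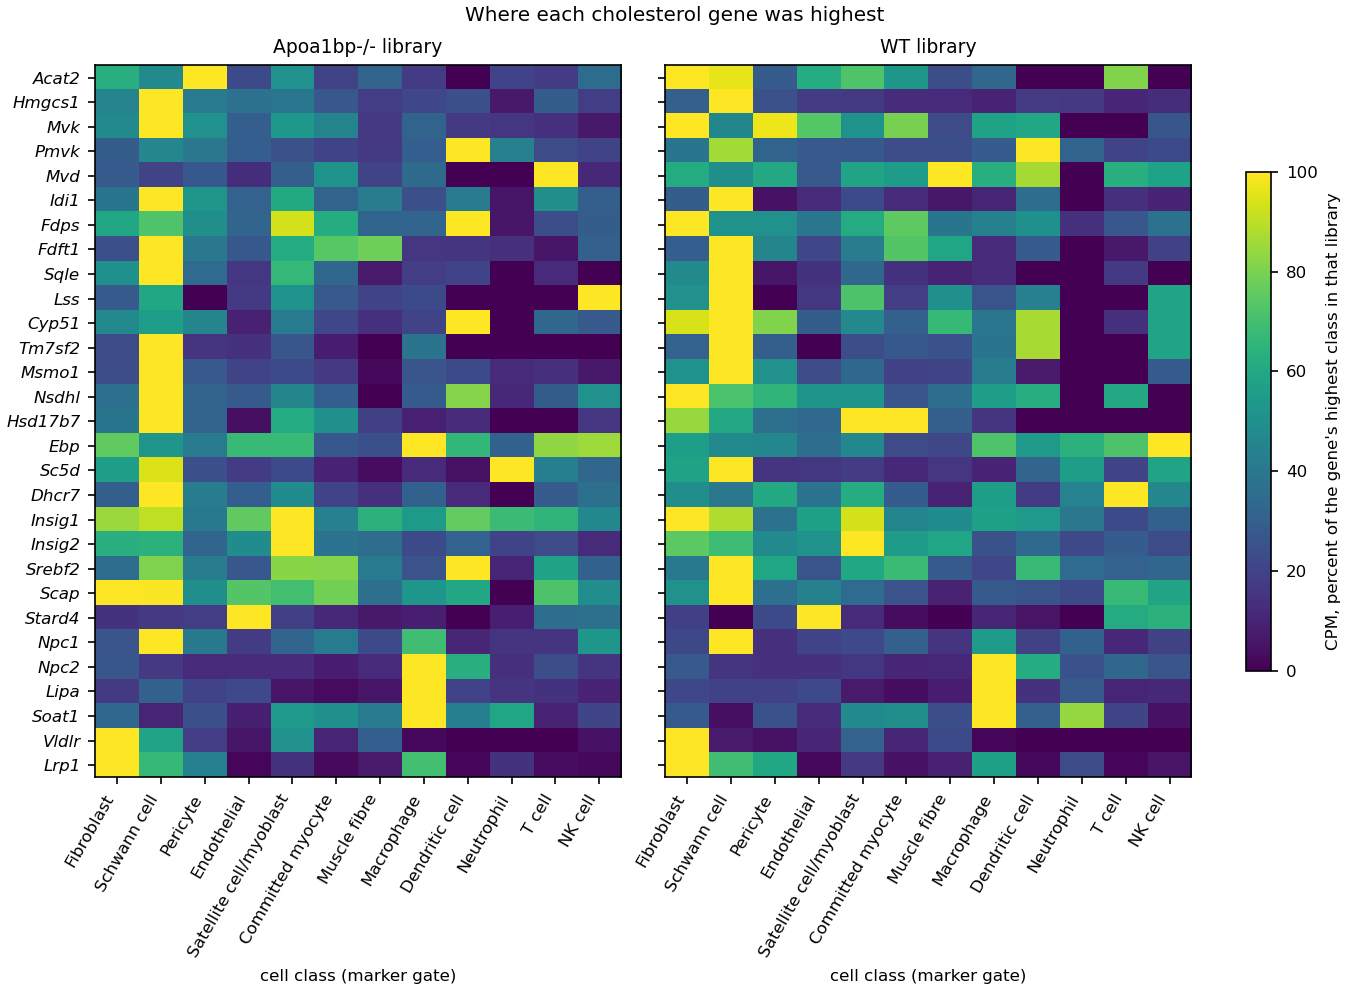
Level of each of the 29 cholesterol genes (rows) in 12 cell classes (columns), as a percent of that gene's highest class in the same library, for the Apoa1bp-/- library (left) and the WT library (right). Uptake receptors were brightest in fibroblasts, Npc2, Lipa and Soat1 in macrophages, and Stard4 in endothelial cells, in both libraries, while several synthesis enzymes were brightest in Schwann cells.

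Among the synthesis enzymes, Hmgcs1, which makes HMG-CoA, stood highest in Schwann cells, at 88.0 CPM in the knockout library and 240 CPM in the WT library. Fibroblasts came next, at 39.6 CPM in the knockout and 73.4 CPM in the WT library, and the intervals of the first and next class did not overlap in either. Msmo1, which removes methyl groups from the sterol ring, was also highest in Schwann cells, at 76.1 CPM in the knockout and 53.4 CPM in the WT library, though in the WT library its interval overlapped that of fibroblasts. Pmvk, which phosphorylates mevalonate phosphate, was highest in dendritic cells, at 103 CPM in the knockout and 92.8 CPM in the WT library, again with overlap with the next class in WT only. These small classes rest on few cells, and the class with the highest value for a low gene such as Lss or Mvd differed between the libraries.

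Of the transport and storage genes, Npc2, Lipa and Soat1 were highest in macrophages. Npc2, whose protein hands free cholesterol to NPC1, reached 1571 CPM in knockout and 1277 CPM in WT macrophages, above dendritic cells at 983 CPM and 789 CPM. Lipa, the acid lipase, reached 299 CPM in knockout and 323 CPM in WT macrophages, and the next class had 92.8 CPM (Schwann cells) in the knockout and 90.0 CPM (neutrophils) in the WT library. Soat1, which esterifies cholesterol for storage, was at 163 CPM in knockout and 214 CPM in WT macrophages, ahead of neutrophils at 95.7 CPM and 180 CPM, where the WT intervals overlapped. Npc1, the lysosomal membrane exporter, was highest in Schwann cells instead, at 99.95 CPM in the knockout and 160.2 CPM in the WT library, with macrophages next at 69.5 CPM and 88.0 CPM, and the intervals of the pair overlapped in the knockout only. Stard4, a cytosolic sterol carrier, was highest in endothelial cells, at 71.4 CPM in the knockout and 73.0 CPM in the WT library. NK cells came next for Stard4, at 26.4 CPM in the knockout and 46.8 CPM in the WT library, and their interval overlapped that of endothelial cells in WT only. Insig2 was highest in satellite cells and myoblasts, at 88.8 CPM in the knockout and 90.5 CPM in the WT library, though its interval overlapped that of Schwann cells in the knockout.

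The receptors Vldlr, which binds triglyceride-rich lipoproteins, and Lrp1, a large endocytic receptor for lipoprotein remnants and many other ligands, were highest in fibroblasts; in the knockout library the Vldlr interval overlapped that of Schwann cells. After each cell was thinned to 1000 UMIs, 7.33% of 1132 knockout fibroblasts (5.88 to 9.01%) and 15.0% of 3167 WT fibroblasts (13.8 to 16.3%) had a Vldlr UMI, against 0.0917% of 3271 knockout macrophages and 0.162% of 4948 WT macrophages. Without thinning the shares were 33.1% and 41.8% in fibroblasts, at medians of 8145 and 4585 UMIs per cell, and 0.681% and 0.899% in macrophages, at medians of 6601 and 4241 UMIs. The thinning left out 24 knockout and 88 WT fibroblasts that held fewer UMIs.

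In fibroblasts the pathway was lower in the knockout library along most of its length. Of the 29 members, all measured there with at least 50 UMIs, 18 were lower by 20% or more in the knockout (a ratio of 0.8 or less), where 30.4% of all 12047 genes measured were, and 0 were higher by 25% or more, where 18.6% of all genes were. The median log2 ratio of knockout over WT was -0.42 over the members and -0.09 over all genes. Both receptors, Srebf2 and the enzymes Hmgcs1 and Sqle lay farthest below 1 by the near bound of their interval, while Npc2 and Ebp were higher. These counts come from 1156 knockout and 3255 WT fibroblasts.

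Vldlr had 52.8 CPM in knockout fibroblasts and 120 CPM in WT fibroblasts, a ratio of 0.440 (0.403 to 0.481). Lrp1 had 472 CPM in knockout and 770 CPM in WT fibroblasts, a ratio of 0.613 (0.594 to 0.632). Both receptors were thus lower in the knockout library by more than counting error. Srebf2 itself had 30.3 CPM in knockout and 57.5 CPM in WT fibroblasts, a ratio of 0.528 (0.468 to 0.594). Of the 4 SREBP2 control genes 2, Srebf2 and Insig1, had a ratio of 0.8 or less. The levels of Scap, the escort, were 21.5 CPM in knockout and 22.5 CPM in WT fibroblasts, and the interval of its ratio included 1.

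At the entry to the pathway, Hmgcs1 had 39.6 CPM in knockout and 73.4 CPM in WT fibroblasts, a ratio of 0.539 (0.485 to 0.598). Sqle, the squalene epoxidase that performs the first oxygen-dependent step, had 10.8 CPM in knockout and 21.2 CPM in WT fibroblasts, a ratio of 0.507 (0.413 to 0.619). In the condensation and mevalonate steps 3 of 7 genes had a ratio of 0.8 or less (median log2 ratio -0.26), and in the squalene and ring steps 8 of 11 did (median -0.62). Summed over the 18 enzymes, the level was 361 CPM in knockout and 476 CPM in WT fibroblasts, a ratio of 0.758 (0.731 to 0.786). Ebp, the sterol isomerase of the late ring steps, lay the other way: it had 58.6 CPM in knockout and 52.3 CPM in WT fibroblasts, a ratio of 1.12 (1.02 to 1.23).

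Of the 5 transport and storage genes 3, Stard4, Npc1 and Lipa, had a ratio of 0.8 or less in fibroblasts. Npc2 ran the other way, at 423 CPM in knockout and 357 CPM in WT fibroblasts, a ratio of 1.19 (1.14 to 1.23). The 10 macrophage markers, all detected, summed to 249 CPM in knockout and 383 CPM in WT fibroblasts, the opposite direction to Npc2, while the 6 monocyte markers, also all detected, summed to 524 CPM and 411 CPM, the same direction. In macrophages the monocyte list summed to less, 366 CPM in the knockout and 237 CPM in the WT library. It summed to 65.4 CPM and 77.4 CPM in satellite cells and myoblasts. Which of its genes gave the fibroblast sum was not examined, so that sum may not stand for monocyte RNA. The part of either list in the fibroblast values was not tested. The remaining 13 members with a ratio of 0.8 or less had ratios between 0.505 and 0.768. Exons of Hmgcs1, Fdft1, Lss, Cyp51 and Npc1 overlap a gene on the other strand, and those of Fdps and Tm7sf2 one on the same strand, in the GENCODE annotation. The sources used here do not say how the counting treated strand, so these 7 values are less certain.

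**Figure D2:**
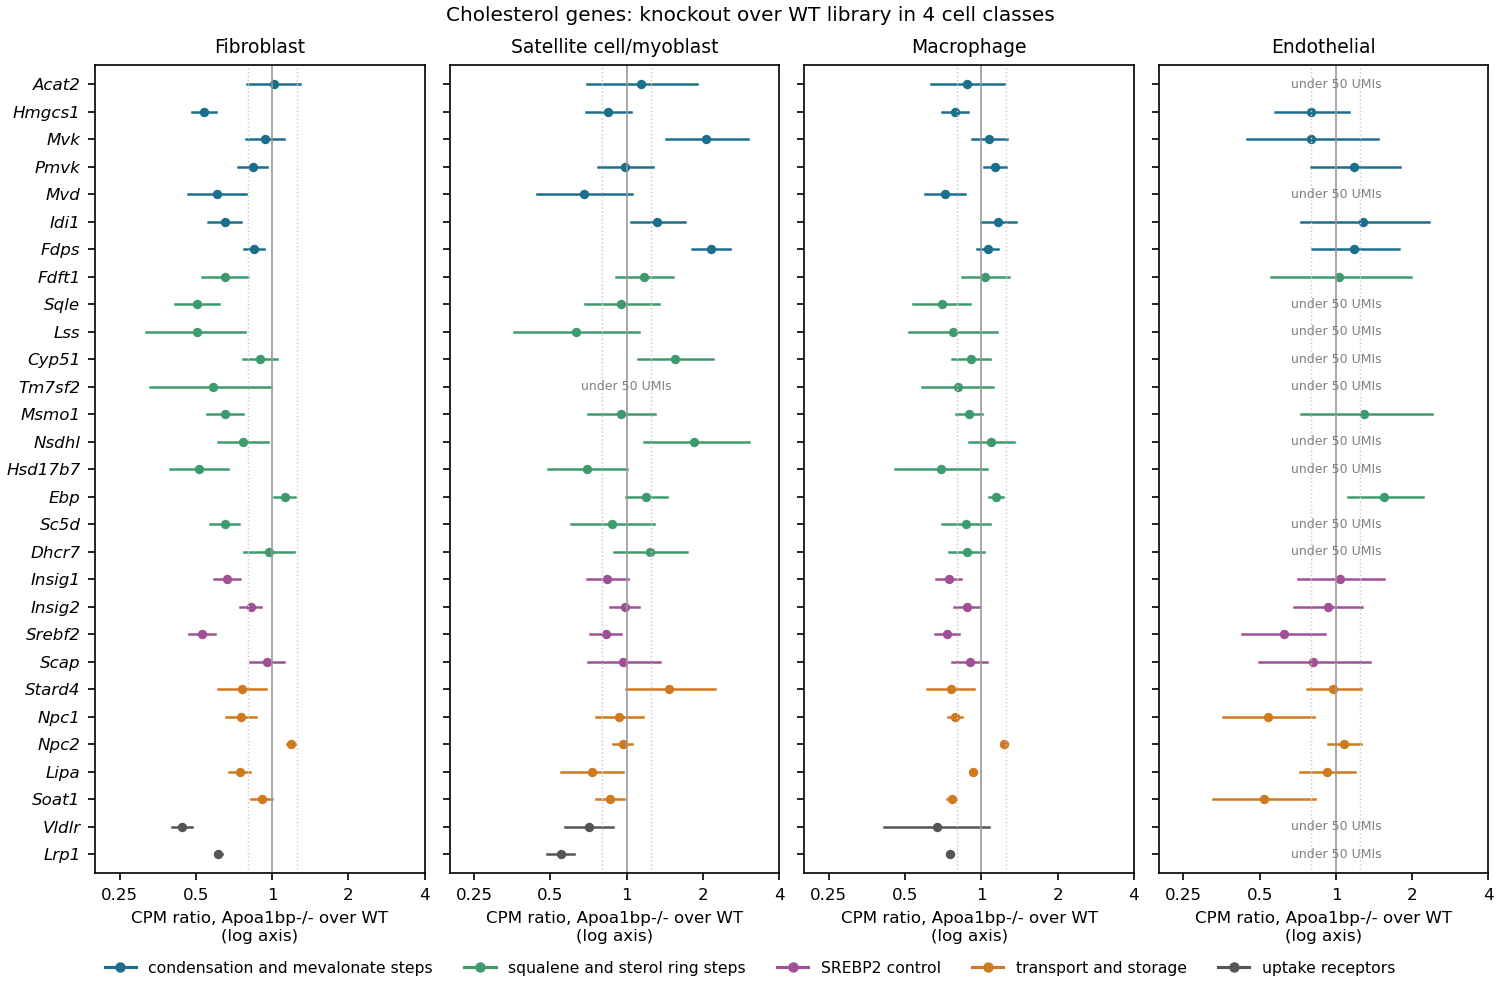
CPM ratio, Apoa1bp-/- library over WT library (log axis), of each cholesterol gene in 4 cell classes, with exact 95% intervals for counting error; colours give the role and dotted lines mark the limits of 20% below and 25% above. Most fibroblast points lie left of 1, led by Vldlr at 0.440, while in satellite cells and myoblasts Fdps lies at 2.15.

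The fibroblasts themselves were of different kinds in the 2 libraries. They were split by 2 of the fibroblast markers, Postn, a matrix gene of activated fibroblasts, and Clec3b, a gene of resting interstitial fibroblasts, with each cell thinned to 1000 UMIs; this split was chosen after seeing the data. Cells with Clec3b and without Postn made up 18.6% of 1132 knockout and 46.3% of 3167 WT fibroblasts. Cells with Postn and without Clec3b made up 42.6% of knockout and 24.0% of WT fibroblasts. The median depth was 5530 and 3689.5 UMIs per cell in knockout and WT cells of the first kind, and 12939 and 8694 UMIs in those of the second.

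Within each library the pathway differed between these 2 kinds. In the knockout library 17 of 27 members measured were higher by 25% or more in Clec3b-only than in Postn-only fibroblasts (36.6% of all genes), and in the WT library 21 of 28 were (36.1% of all genes). Over the members the median log2 ratio was 0.64 in the knockout and 0.79 in the WT library, against 0.09 and 0.12 over all genes. In each library 1 member, Soat1, was lower by 20% or more in the Clec3b-only cells, against 27.2% of all genes in the knockout and 22.3% in the WT library. Vldlr had 162 CPM in Clec3b-only and 20.6 CPM in Postn-only knockout fibroblasts, a ratio of 7.87, and 215 CPM and 33.1 CPM in the WT fibroblasts, a ratio of 6.48. Sc5d, a desaturase of the last ring steps named here after its values were seen, gave ratios of 6.23 in the knockout and 5.46 in the WT library. Srebf2 gave 3.46 and 3.36, and Lrp1 2.1 and 1.95, in the knockout and WT libraries. Npc2 gave 0.999 and 0.978, so it hardly differed between the 2 kinds.

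Compared within each kind, the knockout fibroblasts were still lower for much of the pathway, by less than over the whole class in the 3 kinds with a marker and by more in the small kind with neither. Lower by 20% or more in the knockout were 12 of 27 members in Postn-only cells (25.5% of all genes), 10 of 27 in cells with both markers (22.2%), 13 of 27 in Clec3b-only cells (26.5%) and 14 of 19 in cells with neither (39.7%). Higher by 25% or more were 1, 3, 1 and 0 members in the same order, against 17.5%, 15.8%, 19.1% and 28.0% of all genes. Over the members the median log2 ratio was -0.24 in the kinds with Postn alone or with both markers, -0.27 with Clec3b alone and -0.95 with neither marker. The last kind held 65 knockout and 192 WT cells, of which 23.1% and 4.69% were cycling after thinning, that is, had at least 2 of 8 cycling markers detected, and 41.5% and 9.38% before it. Its median depth was 11152 UMIs per cell in the knockout and 3830.5 in the WT library.

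With the 4 kinds weighted by their share over both libraries, Vldlr had a ratio of 0.708, Sqle 0.788, Lrp1 0.742 and Srebf2 0.730, all nearer to 1 than in the whole class. Hmgcs1 changed little under this weighting, with a ratio of 0.567. In Clec3b-only cells Hmgcs1 had 53.1 CPM in the knockout and 107 CPM in the WT library, and in Postn-only cells 35.98 CPM and 53.4 CPM. Sc5d, which was lower over the whole class, at 26.7 CPM in knockout and 41.0 CPM in WT fibroblasts, came to 1.03 under the weighting. The summed synthesis enzymes came to 0.846 and the number of members with a ratio of 0.8 or less to 15 of 29. The share of all genes under this weighting was not counted. Npc2 was higher in the knockout library in each kind, for example at 415 CPM in knockout and 345 CPM in WT Postn-only cells, and its weighted ratio, like that of the whole class, was 1.19.

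**Figure D3:**
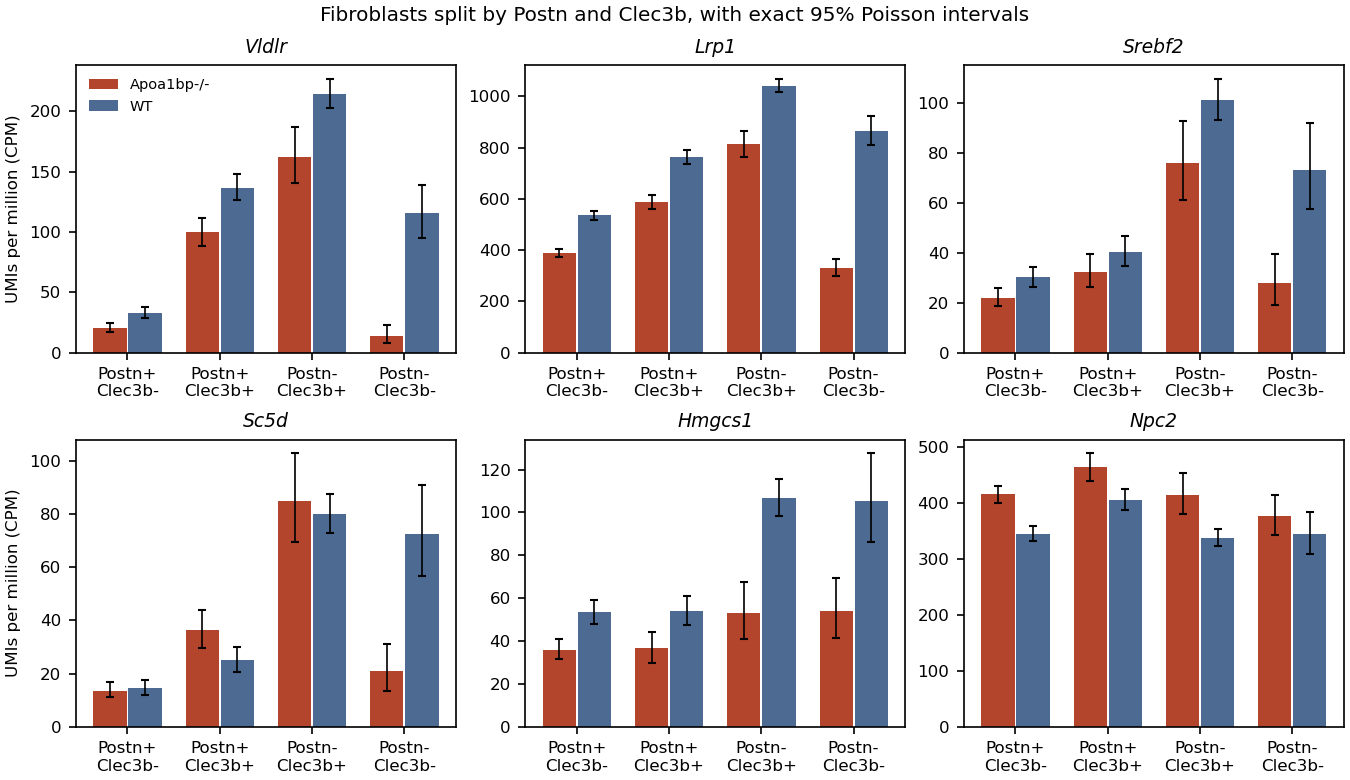
Levels in CPM of 6 cholesterol genes in fibroblasts split by detection of Postn and Clec3b after thinning, in the Apoa1bp-/- library (red, left bars) and the WT library (blue, right bars), with exact 95% Poisson intervals. Vldlr, Lrp1, Srebf2 and Sc5d stand higher in Clec3b-only than in Postn-only cells of both libraries, Hmgcs1 is lower in the knockout library in all 4 kinds, and Npc2 is nearly flat over the kinds.

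Satellite cells and myoblasts, the stem cells of muscle and their dividing progeny, showed shifts in both directions. Of 28 members measured, 6 were higher by 25% or more in the knockout library (21.1% of all 10149 genes measured) and 6 lower by 20% or more (27.8% of all genes), shares near those of all genes. These counts depended on the processing: 13 were lower when cells were averaged instead of summed, and 3 were higher when cells were gated after thinning. The shares of all genes were not counted under those settings. The median log2 ratio was -0.06 over the members and -0.07 over all genes. The higher members were enzymes and Stard4, and the lower ones included both uptake receptors. The class held 893 knockout and 793 WT cells, of which 32.7% and 7.57% were cycling at full depth. Since the knockout cells were deeper, with a median of 7457 against 3654 UMIs in WT cells, more of them can pass that limit. With each cell thinned to 1000 UMIs the shares were 16.9% in the knockout (14.5 to 19.5%) and 4.39% in the WT library (3.06 to 6.08%).

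Fdps, which makes farnesyl diphosphate for sterols and for protein prenylation, had 92.1 CPM in the knockout and 42.8 CPM in the WT library, a ratio of 2.15 (1.81 to 2.57). Mevalonate kinase, Mvk, had 20.4 CPM in the knockout and 9.91 CPM in the WT library, a ratio of 2.06 (1.43 to 3.02). Both were higher in the knockout library by more than counting error. Nsdhl, a dehydrogenase of the demethylation steps, had 11.9 CPM in the knockout and 6.43 CPM in the WT library, a ratio of 1.85 (1.17 to 3.03). Cyp51, the lanosterol demethylase, had 19.5 CPM in the knockout and 12.6 CPM in the WT library, a ratio of 1.55 (1.11 to 2.19). Idi1, the isomerase that precedes Fdps, had 31.9 CPM in the knockout and 24.1 CPM in the WT library, a ratio of 1.32 (1.04 to 1.70), which turned to 0.856 when cells were averaged. Hmgcs1, at the entry to the same steps, had 34.4 CPM in the knockout and 40.7 CPM in the WT library, with an interval that included 1.

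The 18 enzymes together had 404 CPM in the knockout and 328 CPM in the WT library, a ratio of 1.23 (1.15 to 1.32), of which Fdps gave 22.8% of the knockout sum. Without Fdps the sums were 312 CPM and 285 CPM. With cycling cells left out of both libraries the ratio of the enzyme sum was 1.04, those of Cyp51 and Idi1 1.17 and 1.09, and 3 members instead of 6 were higher by 25% or more. Fdps still had a ratio of 1.71, Mvk 1.64 and Nsdhl 1.96 there. Committed myocyte markers, all 6 detected, summed to 472 CPM in knockout and 310 CPM in WT cells of this class, and their part in these values was not tested.

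On the receptor side, Lrp1 had 70.1 CPM in knockout and 128 CPM in WT satellite cells and myoblasts, a ratio of 0.549 (0.484 to 0.621), and Vldlr 26.8 CPM and 37.8 CPM, a ratio of 0.710 (0.571 to 0.885). Both were lower in the knockout library, as in fibroblasts. Lipa had 16.6 CPM in the knockout and 22.8 CPM in the WT library, Srebf2 70.2 CPM and 84.9 CPM, and Soat1 88.3 CPM and 103 CPM, each with an interval below 1. Markers of several other classes ran in the same direction as these 5 genes. Among them, every marker was detected in the fibroblast, macrophage, pericyte and muscle fibre lists. The 10 fibroblast markers summed to 390 CPM in the knockout and 598 CPM in the WT library. The 10 macrophage markers summed to 176 CPM and 275 CPM, the 8 pericyte markers to 170 CPM and 303 CPM, and the muscle fibre markers to 325 CPM and 374 CPM. The tenocyte, monocyte, dendritic cell, B cell and Schwann cell lists, each with undetected markers, were also lower in the knockout library. Among lists that ran the other way were the committed myocyte markers given above and the neutrophil markers. The latter summed to 187 CPM and 146 CPM, with 2 of them at 0 in each library. Srebf2, alone of the 5 genes, stood higher in this class than in fibroblasts, macrophages or pericytes, in both libraries. The part of the other classes in these values was not tested. Without cycling cells the ratio of Lrp1 was 0.606, and that of Vldlr was 0.846, nearer to 1 and no longer below 0.8.

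In macrophages Npc2 was higher in the knockout library, and Lrp1, Soat1, Npc1, Srebf2, Insig1 and some of the enzymes were lower. The 18 enzymes summed to 266 CPM in knockout and 265 CPM in WT macrophages, a ratio of 1.00 (0.970 to 1.04), in which Ebp, one of the higher enzymes, gave 29.2% of the knockout sum. Of the 18 enzymes, 5 (27.8%) were lower by 20% or more, no larger a share than the 31.6% of all genes. The median log2 ratio over the enzymes was -0.17. Among the 5 was Mvd, which makes isopentenyl diphosphate. It had 8.08 CPM in the knockout and 11.3 CPM in the WT library, a ratio of 0.718 (0.599 to 0.859). Hmgcs1 had a ratio of 0.788 (0.699 to 0.888) and Sqle one of 0.699 (0.538 to 0.905). Of 29 members measured 0 were higher by 25% or more (11.4% of all 11831 genes measured) and 12 lower by 20% or more (31.6% of all genes). The members had a median log2 ratio of -0.19 and all genes one of -0.15. The count of lower members depended on scaling: with TMM or DESeq2 factors, which raise every macrophage ratio by 0.15 on the log2 scale, it was 4, and 4 members were higher by 25% or more. With these factors the shares of all genes were not counted.

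Npc2 had 1571 CPM in knockout and 1277 CPM in WT macrophages, a ratio of 1.23 (1.213 to 1.249), the higher value again in the knockout library. Its partner Npc1 had 69.5 CPM in the knockout and 88.0 CPM in the WT library, a ratio of 0.789 (0.742 to 0.839). The 2 proteins of the same export step thus had opposite directions at the transcript level. Soat1 had 163 CPM in knockout and 214 CPM in WT macrophages, a ratio of 0.763 (0.733 to 0.794), and Lrp1 had 331 CPM and 441 CPM, a ratio of 0.751 (0.730 to 0.772). Srebf2 had 22.0 CPM in the knockout and 30.0 CPM in the WT library, and Insig1 21.5 CPM and 28.9 CPM, both lower in the knockout. Ebp, at 77.5 CPM in knockout and 67.8 CPM in WT macrophages, and Pmvk, at 30.5 CPM and 26.9 CPM, were slightly higher in the knockout, with ratios of 1.14 and 1.13.

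Markers of other cells moved with genotype in this class. All 8 neutrophil, 8 muscle fibre and 10 fibroblast markers were detected in both libraries. Neutrophil markers summed to 263 CPM in knockout and 94.2 CPM in WT macrophages, muscle fibre markers to 616 CPM and 500 CPM, and fibroblast markers to 53.4 CPM and 122 CPM. Their part in the macrophage values was not tested.

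The macrophages were split into subsets, between which single members differed while the counts over the list lay near those of all genes. Lipid-associated macrophages, gated by Gpnmb, Spp1, Trem2 and related genes, made up 41.4% of knockout and 34.7% of WT macrophages, and class II macrophages, gated by MHC class II genes and Cx3cr1, 39.2% and 39.9%. After thinning to 1000 UMIs the shares were 28.6% of knockout and 23.6% of WT macrophages for the first subset and 45.0% and 46.0% for the second. Resident macrophages were 24 knockout and 372 WT cells, too few in the knockout for values of their own. Within each library 7 of 26 members measured were higher by 25% or more in lipid-associated than in class II cells, against 20.7% of all genes in the knockout and 18.2% in the WT library. As many as 6 of 26 were lower by 20% or more in each library, against 30.5% and 27.7% of all genes. The median log2 ratio was 0.06 in the knockout and 0.05 in the WT library, with -0.07 over all genes in both.

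The members higher in lipid-associated cells included those of lysosomal release and storage. Lipa had 357 CPM in lipid-associated and 208 CPM in class II cells of the knockout library, a ratio of 1.71, and 411 CPM and 227 CPM in the WT library, a ratio of 1.82. Soat1 had ratios of 1.53 in the knockout and 1.81 in the WT library, Lrp1 of 1.41 and 1.55, and Npc1 of 1.45 and 1.35. Srebf2 and Cyp51 were lower in lipid-associated cells, with ratios of 0.695 and 0.623 in the knockout and 0.786 and 0.732 in the WT library. The lipid-associated cells were deeper, with medians of 9053 and 5921 UMIs in the knockout and WT libraries, against 4936 and 3374 UMIs in class II cells.

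Between genotypes the subsets gave much the same picture as the class. In lipid-associated cells 1 of 27 members was higher by 25% or more in the knockout (11.2% of all genes) and 8 lower by 20% or more (26.7%), and in class II cells 1 of 25 (13.4%) and 9 of 25 (28.2%). Npc2 had 1620 CPM in knockout and 1418 CPM in WT lipid-associated cells, and 1466 CPM and 1129 CPM in class II cells, so it was higher in the knockout in both. Lrp1 had 371 CPM and 543 CPM in lipid-associated cells, a ratio of 0.683, and 263 CPM and 350 CPM in class II cells, a ratio of 0.752. Soat1 had 189 CPM in knockout and 270 CPM in WT lipid-associated cells, a ratio of 0.700. The direction of these 3 genes was thus the same inside each subset.

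**Figure D4:**
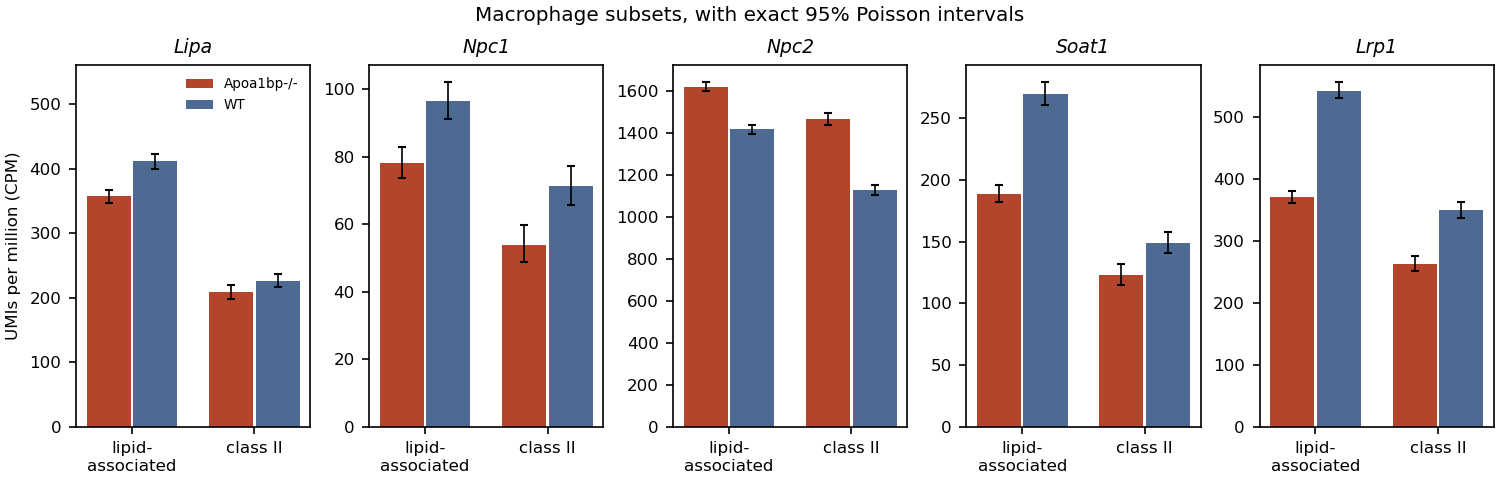
Levels in CPM of 5 transport, storage and uptake genes in lipid-associated and class II macrophages of the Apoa1bp-/- library (red, left bars) and the WT library (blue, right bars), with exact 95% Poisson intervals. All 5 are higher in lipid-associated than in class II cells of the same library, and Npc2 is the only one of the 5 that is higher in the knockout library, in both subsets.

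Endothelial cells, which the title of the study names, gave the least precise values, from 313 knockout and 332 WT cells with medians of 6650 and 2119.5 UMIs. Of 29 members 17 were measured: 3 were higher by 25% or more in the knockout (17.2% of all 7707 genes measured) and 5 lower by 20% or more (30.9% of all genes). The median log2 ratio was -0.03 over the members and -0.11 over all genes. The 18 enzymes summed to 247 CPM in knockout and 237 CPM in WT endothelial cells, a ratio of 1.04 (0.915 to 1.19). TMM factors raise every endothelial ratio by 0.17 on the log2 scale, and the counts were then 5 higher and 3 lower, with no count over all genes beside them.

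Ebp had 52.3 CPM in knockout and 33.6 CPM in WT endothelial cells, a ratio of 1.55 (1.12 to 2.20). Npc1 had 17.8 CPM in the knockout and 32.9 CPM in the WT library, Soat1 14.1 CPM and 27.2 CPM, and Srebf2 23.1 CPM and 37.2 CPM, with ratios of 0.540, 0.518 and 0.621. These 3 were lower in the knockout with intervals below 1, but the ratio of Srebf2 was 1.41 when cells were averaged instead of summed. In endothelial cells the 10 macrophage markers, all detected, summed to 184 CPM in the knockout and 346 CPM in the WT library. That is the same direction as these 3 genes. WT macrophages had more Npc1 and Soat1 than WT endothelial cells, at 88.0 CPM and 214 CPM. For Srebf2 they were the lowest of 12 classes in the WT library, at 30.0 CPM, and endothelial cells were next lowest. Pericyte markers summed to 271 CPM in knockout and 423 CPM in WT endothelial cells, and muscle fibre markers to 139 CPM and 273 CPM. WT pericytes and fibroblasts, the latter at 57.5 CPM, had more Srebf2 than WT endothelial cells. Satellite cell, committed myocyte, NK cell and Schwann cell markers ran the other way. The part of RNA from other classes in these values was not tested. The receptors Vldlr and Lrp1, each under 50 UMIs, together had 27 UMIs or 9.04 CPM in the knockout and 42 UMIs or 30.0 CPM in the WT library. The 10 markers of fibroblasts, the class where these receptors were highest, summed in endothelial cells to 43.5 CPM with 1 of 10 at 0 in the knockout and to 127 CPM with 0 of 10 at 0 in the WT library, and their part in the receptor values was not tested. The entry gene Hmgcs1 had 33.2 CPM in knockout and 41.5 CPM in WT endothelial cells, with an interval that included 1.

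Cycling cells, with at least 2 of 8 cycling markers, were set against cells with none, within each library. The share of cycling cells was higher in the knockout library in fibroblasts, at 12.6% of knockout and 4.45% of WT cells, where the knockout cells were deeper. After thinning to 1000 UMIs it was 4.42% (3.30 to 5.78%) and 1.42% (1.04 to 1.90%) of fibroblasts, and in macrophages 5.14% and 4.77%, with intervals that overlapped. In endothelial cells it was 10.3% of knockout and 5.30% of WT cells, also with overlap. In fibroblasts the receptors and Sc5d were lower in cycling cells and Fdps, Cyp51 and Stard4 higher, in both libraries. Vldlr had 10.6 CPM in cycling and 79.7 CPM in other knockout fibroblasts, a ratio of 0.133, and 20.7 CPM and 142 CPM in WT fibroblasts, a ratio of 0.146. Lrp1 had ratios of 0.534 in the knockout and 0.519 in the WT library, and Sc5d of 0.380 and 0.435. Fdps had ratios of 1.42 and 1.76, Cyp51 of 1.64 and 1.81, and Stard4 of 2.56 and 1.84, in the knockout and WT libraries.

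Over the list, 6 of 27 members in knockout fibroblasts were higher by 25% or more in cycling cells (24.4% of all genes) and 9 lower by 20% or more (41.6%), and in WT fibroblasts 8 of 28 (23.3%) and 10 of 28 (38.9%). Msmo1 was lower in cycling cells of the knockout library, with a ratio of 0.587, and higher in those of the WT library, with a ratio of 1.38. Cycling fibroblasts were deeper, with medians of 21209.5 and 11024 UMIs against 7040 and 4319.5 UMIs in cells with no cycling marker, in the knockout and WT libraries. In the split above, 6.85% of knockout and 3.03% of WT Postn-only cells were cycling after thinning, against 0.476% and 0.682% of Clec3b-only cells; before thinning the shares were 21.8% and 12.0%, against 1.43% and 1.30%. Leaving cycling cells out moved the Vldlr ratio between genotypes in fibroblasts to 0.523 and that of Lrp1 to 0.662.

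In knockout satellite cells and myoblasts the enzymes were higher in the 292 cycling cells as a group: 11 of 15 measured were higher by 25% or more, with a median log2 ratio of 0.66. Over all members 12 of 26 were higher (24.2% of all genes) and 5 lower (25.9%). Acat2, which joins acetyl-CoA units, had 11.7 CPM in cycling and 3.91 CPM in other cells, Fdps 111 CPM and 63.1 CPM, and Hmgcs1 41.8 CPM and 27.7 CPM. The WT library did not show this: with 60 cycling cells, 1 of 7 enzymes measured was higher and 3 lower, with a median of -0.19. Only 1 of these 7 had an interval above 1 and 1 an interval below 1. The median bounds of the WT intervals, -1.06 and 0.50 on the log2 scale, overlapped those of the knockout, 0.20 and 1.02. With so few WT cells an opposite pattern cannot be read from these values. This difference between the libraries was not tested. Over all members 1 of 17 was higher there (22.7% of all genes) and 11 lower (37.7%). Ebp was higher in cycling cells in both libraries, with ratios of 1.62 in the knockout and 1.94 in the WT library, and so was Acat2, with 3.01 and 2.82, the WT value resting on 9 and 14 UMIs. The receptors were lower in cycling cells in both, Vldlr with ratios of 0.369 and 0.172 and Lrp1 with 0.574 and 0.343, in the knockout and WT libraries.

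In macrophages 6 of 26 members were higher by 25% or more in cycling cells of the knockout library (28.3% of all genes) and 4 lower (27.9%), and 9 of 28 higher (26.8%) and 6 lower (26.9%) in the WT library. Sqle had a ratio of 1.77 in both libraries, Ebp of 1.34 in the knockout and 1.24 in the WT library, and Stard4 of 1.52 and 1.46. Npc2 was lower in cycling macrophages, with ratios of 0.744 in the knockout and 0.729 in the WT library, and so was Insig1, with 0.578 and 0.700. In endothelial cells 10 members in the knockout and 6 in the WT library had enough UMIs, of which 1 and 2 were higher (20% and 20.9% of all genes) and 2 and 2 lower (32.1% and 34.5%).

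**Figure D5:**
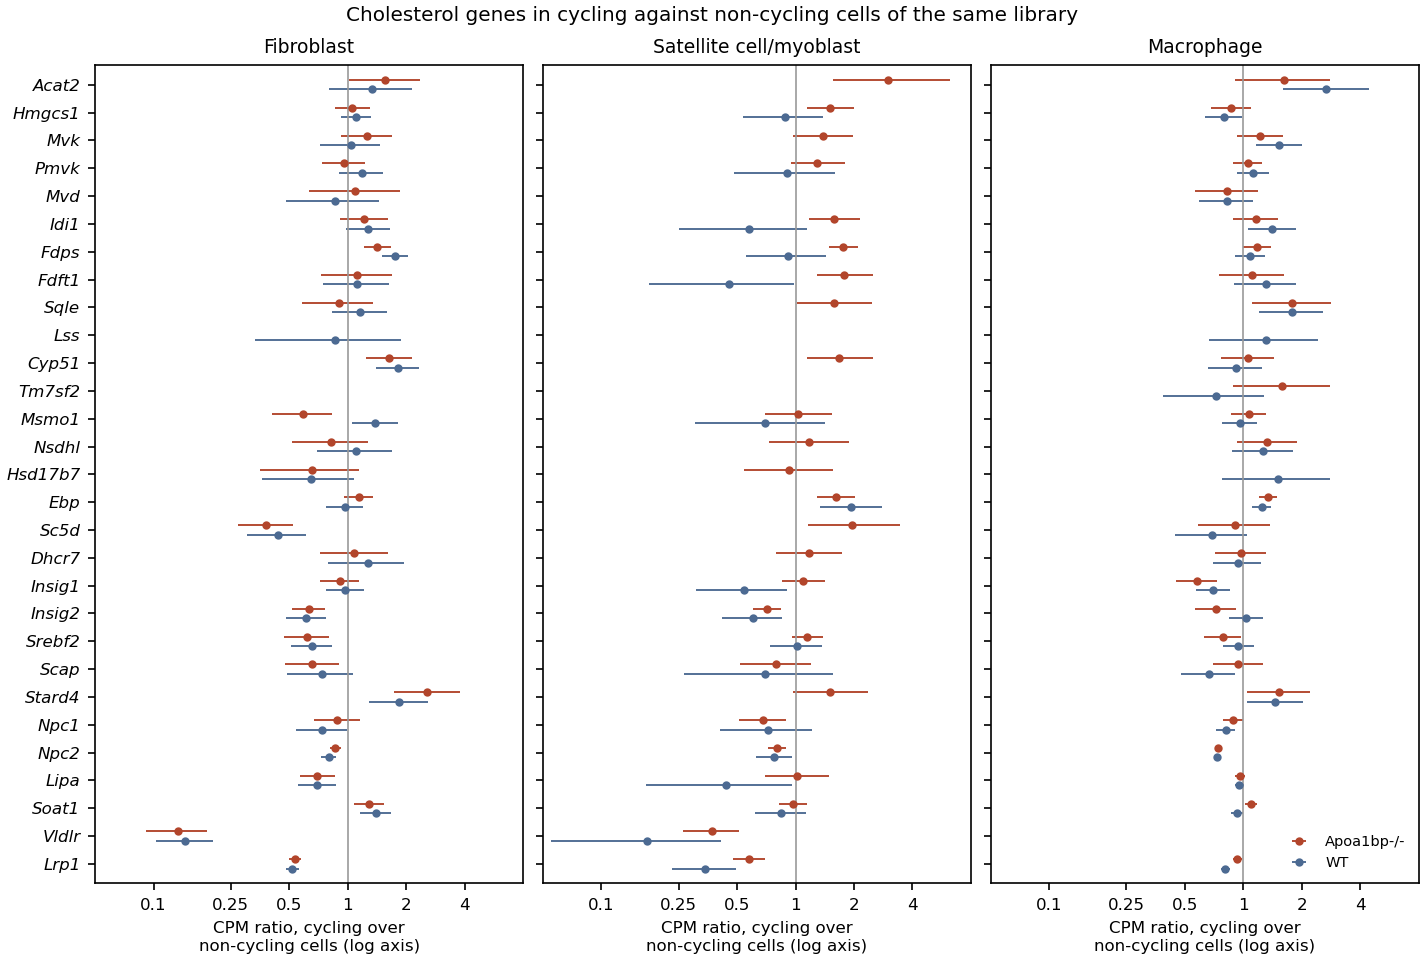
CPM ratio of cycling over non-cycling cells (log axis) for each cholesterol gene in 3 classes, in the Apoa1bp-/- library (red, upper points) and the WT library (blue, lower points), with exact 95% intervals for counting error; members under 50 UMIs have no point. Vldlr and Lrp1 lie left of 1 in fibroblasts and in satellite cells of both libraries. The enzymes of satellite cells lie mostly right of 1 in the knockout library. In the WT library fewer have a point, these lie on both sides of 1, and most of their intervals include 1.

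A list of 32 further genes of the pathway, such as those for acetyl-CoA supply, degradation of pathway proteins and sterol carriers, was counted in the same way. In fibroblasts 1 of 29 measured was higher by 25% or more in the knockout (18.6% of all genes) and 12 lower by 20% or more (30.4%). The median log2 ratio there was -0.22. In satellite cells and myoblasts 5 of 28 were higher (21.1% of all genes) and 8 lower (27.8%), with a median of -0.12. In macrophages 1 of 30 was higher (11.4%) and 10 lower (31.6%), with a median of -0.23. In endothelial cells 3 of 25 were higher (17.2%) and 9 lower (30.9%), with a median of -0.19. Outside fibroblasts the shares lower, 28.6%, 33.3% and 36% in the same order, were thus near those of all genes.

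Acly, which makes acetyl-CoA from citrate, had 57.1 CPM in knockout and 93.3 CPM in WT fibroblasts, 31.4 CPM and 48.2 CPM in macrophages, and 69.3 CPM and 106 CPM in endothelial cells. It was lower in the knockout library in each of these 3 classes, and also in satellite cells and myoblasts, at 24.7 CPM and 33.2 CPM. Mylip, the ubiquitin ligase that degrades lipoprotein receptors of this family, had 49.9 CPM in knockout and 75.0 CPM in WT fibroblasts, 17.4 CPM and 38.8 CPM in satellite cells and myoblasts, and 34.9 CPM and 58.6 CPM in macrophages. It too was lower in the knockout library in each, in the same direction as the transcripts of Vldlr and Lrp1. Tspo, a cholesterol-binding protein of the outer mitochondrial membrane, was higher in the knockout library in all 4 classes: 355 CPM against 299 CPM in fibroblasts, 413 CPM against 342 CPM in satellite cells and myoblasts, 887 CPM against 681 CPM in macrophages, and 668 CPM against 497 CPM in endothelial cells. Tmem97, a sterol-responsive membrane protein, had 49.99 CPM in knockout and 31.3 CPM in WT fibroblasts, a ratio of 1.60. Lbr, a sterol reductase of the nuclear envelope, had 20.4 CPM in knockout and 38.2 CPM in WT macrophages and 111 CPM and 154 CPM in endothelial cells, but 44.5 CPM and 33.7 CPM in satellite cells and myoblasts, where it was higher in the knockout.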

How the data were processed

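Ischemic adductor muscle was digested with collagenase D and sequenced as droplet libraries, 1 per genotype, per the labels' protocols. The deposited values are raw counts of UMIs for every gene in every barcode. The authors made them with Cell Ranger; the submitters' processing notes give version 2.1.1 and the file headers 5.0.0. The sources used here name no genome build or annotation.

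Barcodes with under 200 genes (31 knockout, 49 WT) or over 10% mitochondrial UMIs (197 and 149) were removed, then doublets called by Scrublet in scanpy 1.11.5 (482 and 1486, or 5.26% and 10.7%). The libraries held 80444279 and 80954991 UMIs. A cell joined the class with the largest share of its markers detected, at least 3 of them. It stayed without a class if an unrelated class had at least 3 markers and more than 0.5 of that share. Related classes were not held against each other: macrophages, monocytes, dendritic cells and neutrophils, the 3 muscle classes, fibroblasts and tenocytes, and T and NK cells. The muscle fibre list was held against no class. These gate details were set after marker counts were seen, and the members, gene lists and tests were chosen with earlier results of these data known. UMIs were summed per class and library (numpy 2.4.6, scipy 1.17.1, Python 3.11.15). A gene counted as measured at 50 UMIs in both libraries together. Up to 5 members each way per class, and 3 other pathway genes, were named by the interval bound nearest 1. No p-value is given, since each genotype had 1 library. TMM factors came from edgeR 4.0.16 and size factors from DESeq2 1.42.0. The interval code was tested on simulated data.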

Additional observations from a re-analysis of the deposited data

Results flagged for a closer look

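The ratio of knockout over WT lay on opposite sides of 1 in 2 classes, with intervals for counting error that both left out 1, for 4 enzymes, for the sums of both groups of enzymes and of all 18, and for the transport and storage sum. With 1 library per genotype these differences between classes were not tested. Fdps had a ratio of 2.15 in satellite cells and myoblasts (92.1 CPM in the knockout and 42.8 CPM in the WT library) and 0.849 in fibroblasts (59.0 and 69.4 CPM). Idi1 had 1.32 in satellite cells and myoblasts and 0.649 in fibroblasts (20.3 CPM in the knockout and 31.3 CPM in the WT library), but 0.856 in satellite cells and myoblasts when cells were averaged. Nsdhl had 1.85 in satellite cells and myoblasts and 0.768 in fibroblasts (9.54 and 12.4 CPM). Within the fibroblast kinds Nsdhl had 1.005 with Postn alone, 1.199 with both markers and 1.02 with Clec3b alone, with intervals that included 1. With neither marker it had 0.468, from 14 knockout and 26 WT UMIs. Fdps had 1.05, 0.942, 0.797 and 0.597 in the same order, with intervals below 1 in Clec3b-only cells and with neither marker. Idi1 was below 1 in each kind, and Pmvk in each but Clec3b-only cells. Pmvk had 1.13 in macrophages and 0.838 in fibroblasts (30.1 and 35.9 CPM). The summed synthesis enzymes had 1.23 in satellite cells and myoblasts and 0.758 in fibroblasts. Of their 2 parts, the condensation and mevalonate sum had 1.36 and 0.733, and the squalene and ring sum 1.11 and 0.785, in the same classes. The transport and storage sum, most of it Npc2 in fibroblasts and macrophages, had 1.06 in fibroblasts and 1.10 in macrophages but 0.931 in satellite cells and myoblasts, and the last became 1.01 with TMM. After thinning, the share of cycling cells was 16.9% and 4.39% of satellite cells and myoblasts and 4.42% and 1.42% of fibroblasts, knockout and WT, and its part was not tested beyond leaving those cells out.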

How the results depend on the processing

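No paired analysis was possible because each genotype had 1 library. For the same reason no replicate could be left out. Of 865 member ratios recomputed under other settings 807 moved by less than their counting interval, 53 moved further and 5 crossed 1 from an interval that had left out 1. Of 204 sums over a role group the numbers were 153, 48 and 3. The fibroblast result held its direction under every setting run: 14 to 19 members counted as lower (the 14 with the fold set to 1.5), 0 were higher, and the median log2 ratio lay between -0.49 and -0.32. Shares of all genes were not counted under the other settings, here or for the counts below.

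The count of members higher by 25% or more in satellite cells and myoblasts (6) was 3 when cells were gated after thinning and 3 without cycling cells. The count lower by 20% or more there (6) was 13 with cells averaged and 2 at a fold of 1.5. In endothelial cells the lower count (5) was 3 under the stricter gate, 2 without cycling cells, 3 with TMM, 3 with DESeq2 factors, 9 at a minimum of 20 UMIs, 13 at 1 UMI per library and 3 at a fold of 1.5. The higher count there (3) was 8 with cells averaged, 5 with TMM, 5 with DESeq2 factors and 1 at a fold of 1.5. In macrophages the higher count (0) was 4 with TMM and 4 with DESeq2 factors, and the lower count (12) was 4, 4 and, at a fold of 1.5, 0. The minimum and fold settings change how many genes can be counted; for the others the cause was not tested.

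Of the ratios whose interval had left out 1, those that crossed it were the squalene and ring sum in satellite cells and myoblasts (0.958 without cycling cells, 0.989 with cells averaged), Idi1 there (0.856 with cells averaged), the transport sum there (1.01 with TMM), Srebf2 in endothelial cells (1.41 with cells averaged), Lipa in macrophages (1.03 with TMM and 1.03 with DESeq2 factors) and Sc5d in fibroblasts (1.03 with the kinds weighted, a setting chosen after seeing the data). Median depth per cell differed between the libraries in every large class, so shares of cells with a UMI and, by a choice made after seeing the data, of cycling cells and macrophage subsets are given after thinning: 384 of 464 shares of cells with a UMI moved when the depth was changed. Endothelial ratios rest on the fewest UMIs.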
